A study of Homo sapiens with 8 samples.

Results

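The aldo-keto reductase genes AKR1A1, AKR1B1, AKR1B10, AKR1C1, AKR1C2 and AKR1C3, were followed across 8 RNA libraries of 2 human squamous carcinoma lines. The 6 genes were selected on earlier results of these data, their counts under the inhibitor against DMSO in each line, so that response is described here without a test. They stand among 61533 gene identifiers in the count tables. All 6 passed the filter on low counts, as did 18738 genes in all.

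CAL27 is a line from a tongue carcinoma and A431 a line from an epidermoid carcinoma. The 4 groups were CAL27 under NEDD8i, CAL27 under DMSO, A431 under NEDD8i and A431 under DMSO, with 2 libraries each, all collected after 16 h. NEDD8i is the labels' name for an inhibitor of the NEDD8 system, and DMSO is the solvent control. The labels give neither the identity nor the dose of the inhibitor. The labels name no introduced allele in either line, and both were grown below confluence with the compound added in fresh medium. The labels do not say whether replicates were separate cultures, and the p-values therefore reflect the spread among these libraries alone, which may be technical.

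Aldo-keto reductases use NADPH to reduce aldehydes and ketones to alcohols. The AKR1C enzymes act on steroid hormones and prostaglandins, AKR1B enzymes on sugars, retinal and lipid aldehydes, and AKR1A1 on a broad range of aldehydes. As background, NEDD8 is a ubiquitin-like protein that activates cullin ligases. One of these ligases, built on CUL3 with KEAP1 as adaptor, marks the transcription factor NRF2 for degradation, and human AKR1B10, AKR1C1, AKR1C2 and AKR1C3 are known NRF2 target genes.

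The count tables place AKR1C1 at chr10:4963415-4983283 on the plus strand, AKR1C2 at chr10:4987775-5004014 on the minus strand and AKR1C3 at chr10:5048812-5107686 on the plus strand of GRCh38. AKR1B1 lies at chr7:134442356-134459100 on the minus strand, AKR1B10 at chr7:134527567-134541412 on the plus strand and AKR1A1 at chr1:45550543-45570049 on the plus strand. No exonic base of the 6 genes lies in an exon of another annotated gene. The AKR1C genes are near-copies, and the windows around their starts (RefSeq, GRCh38.p14, 250 bases before to 50 after the start) are shown because AKR1C1 and AKR1C2 differ there at a handful of bases although they respond to different degrees in CAL27. Capitals mark bases that differ from, or face a gap inside the alignment with, the window compared, which is AKR1C2 for AKR1C1 and AKR1C1 for the other sequences. Bases at the ends that lie beyond the other window are in lower case. The windows are chr10:4963165-4963464 (plus strand) for AKR1C1, chr10:5003808-5004107 (minus strand) for AKR1C2 and chr10:5048531-5048830 (plus strand) for the first AKR1C3 start.
AKR1C1: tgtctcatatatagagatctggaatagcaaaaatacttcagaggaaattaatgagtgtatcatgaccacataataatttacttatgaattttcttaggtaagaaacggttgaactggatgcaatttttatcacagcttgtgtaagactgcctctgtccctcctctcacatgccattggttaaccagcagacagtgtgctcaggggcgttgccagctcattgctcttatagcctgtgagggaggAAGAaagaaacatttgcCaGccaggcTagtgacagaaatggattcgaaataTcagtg
AKR1C2: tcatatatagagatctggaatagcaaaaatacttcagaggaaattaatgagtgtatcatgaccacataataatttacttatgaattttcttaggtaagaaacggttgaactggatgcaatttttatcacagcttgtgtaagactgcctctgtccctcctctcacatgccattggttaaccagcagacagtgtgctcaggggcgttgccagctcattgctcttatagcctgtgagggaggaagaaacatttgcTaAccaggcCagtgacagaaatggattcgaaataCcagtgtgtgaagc
AKR1C3: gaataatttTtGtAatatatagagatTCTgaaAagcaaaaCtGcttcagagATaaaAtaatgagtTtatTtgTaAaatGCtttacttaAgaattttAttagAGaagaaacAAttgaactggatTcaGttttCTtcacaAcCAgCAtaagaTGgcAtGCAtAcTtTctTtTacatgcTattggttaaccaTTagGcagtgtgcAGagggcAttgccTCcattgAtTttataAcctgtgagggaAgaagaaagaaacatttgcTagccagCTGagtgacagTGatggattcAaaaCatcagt
The AKR1C1 and AKR1C2 windows were identical at 98.6% of 292 aligned bases, with 4 bases in a gap. The AKR1C3 window printed was identical to that of AKR1C1 at 78.0% of 291 aligned bases, and a second AKR1C3 start at chr10:5094164-5094463 at 79.5% of 283 aligned bases.

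RefSeq windows were matched for AKR1A1, AKR1B1, AKR1C1, AKR1C2 and AKR1C3, 7 windows in all. No window was available for AKR1B10, so its start was not searched. The antioxidant response element core TGACNNNGC, searched on both strands, had no match in these windows and was present in 13.3% of 35116 promoter windows. The AP-1 motif TGACTCA, also on both strands, had no match in the 7 windows and was present in 4.95% of all. No match says only that these letters are not in these windows.

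The likeness extends through the transcripts. The principal AKR1C1 and AKR1C2 transcripts (GENCODE 29) were identical at 97.6% of 3750 aligned bases. AKR1C3 was identical at 88.3% of aligned bases to AKR1C1 and at 88.5% to AKR1C2, and AKR1B1 and AKR1B10 were identical at 69.8%. The assay reads the 3′ ends of transcripts, so the last 500 bases matter most. Of the 50-base windows there, 88.9% in AKR1C2 also occurred in another gene, all of them in AKR1C1, against 27.1% in AKR1C3, 8.87% in AKR1B10, 2.44% in AKR1B1 and 0% in AKR1C1 and AKR1A1, each in its principal transcript. The AKR1C2 transcripts with other annotated ends had 60.1% and 36.4% of such windows shared, a shorter AKR1C1 transcript 16.2%, all with AKR1C2, and other AKR1C3 transcripts 27.1% and 33.0%. Reads that mapped to more than 1 place were dropped before counting, so the level of AKR1C2 and its ratio to AKR1C1 are uncertain. Over its whole length the principal AKR1C1 transcript had 28.7% of such windows shared, so AKR1C1 and AKR1C3 may have lost reads as well.

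The libraries held 49037868 to 62509817 counts each, so that 3 counts in a library are 0.048 to 0.0612 CPM, the count scaled by library size after TMM adjustment. Between 70.2% and 76.7% of gene counts from 1 to 40 were even, since each mate of a read pair counted, and counting errors from these counts are too small. All 12 epithelial markers, keratins among them, were present in every library. Of 14 markers of other cell types, 7 or 8 had any count in a library, with summed levels of 18.5 and 21.9 CPM in CAL27 under NEDD8i, 27.4 and 30.3 CPM in CAL27 under DMSO, 23.2 and 22.9 CPM in A431 under NEDD8i, and 60.8 and 54.3 CPM in A431 under DMSO. Their part in the results was not tested.

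Among the hydroxysteroid dehydrogenases, AKR1C1, which inactivates progesterone, was higher under NEDD8i in both lines. In CAL27, AKR1C1 stood at 996 and 998 CPM under NEDD8i, against 3.15 and 2.86 CPM under DMSO. In A431, it stood at 2577 and 2476 CPM under NEDD8i, against 106 and 102 CPM under DMSO. The treated and control libraries did not overlap in either line, and the CAL27 control libraries, at 170 and 189 counts, were the lowest of all 8. The log2 change (treated over control, ± approximate standard error) was 8.38 ± 0.06 in CAL27, 333-fold, and 4.60 ± 0.05 in A431, 24.3-fold. It was 3.77 higher in CAL27 than in A431 on the log2 scale.

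AKR1C2, which reduces dihydrotestosterone to a weaker androgen, followed the same order of groups. In CAL27, AKR1C2 stood at 370 and 383 CPM under NEDD8i, against 6.82 and 9.20 CPM under DMSO. In A431, it stood at 4105 and 4078 CPM under NEDD8i, against 222 and 199.8 CPM under DMSO. No library of one group overlapped another group, and A431 under NEDD8i was the highest. The log2 change was 5.54 ± 0.09 in CAL27, 46.6-fold, and 4.28 ± 0.08 in A431, 19.4-fold. The CAL27 change was 1.26 larger on the log2 scale, a smaller gap between the lines than for AKR1C1.

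AKR1C3, which makes testosterone from androstenedione and acts as a prostaglandin F synthase, had the smallest AKR1C change in both lines. In CAL27, AKR1C3 stood at 48.4 and 57.0 CPM under NEDD8i, against 2.85 and 2.57 CPM under DMSO. In A431, it stood at 854 and 831 CPM under NEDD8i, against 87.4 and 76.7 CPM under DMSO. Here the treated CAL27 libraries stayed below the untreated A431 libraries, unlike AKR1C1 and AKR1C2. The log2 change was 4.29 ± 0.10 in CAL27, 19.5-fold, and 3.36 ± 0.07 in A431, 10.3-fold, a difference of 0.93 on the log2 scale.

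**Figure D1:**
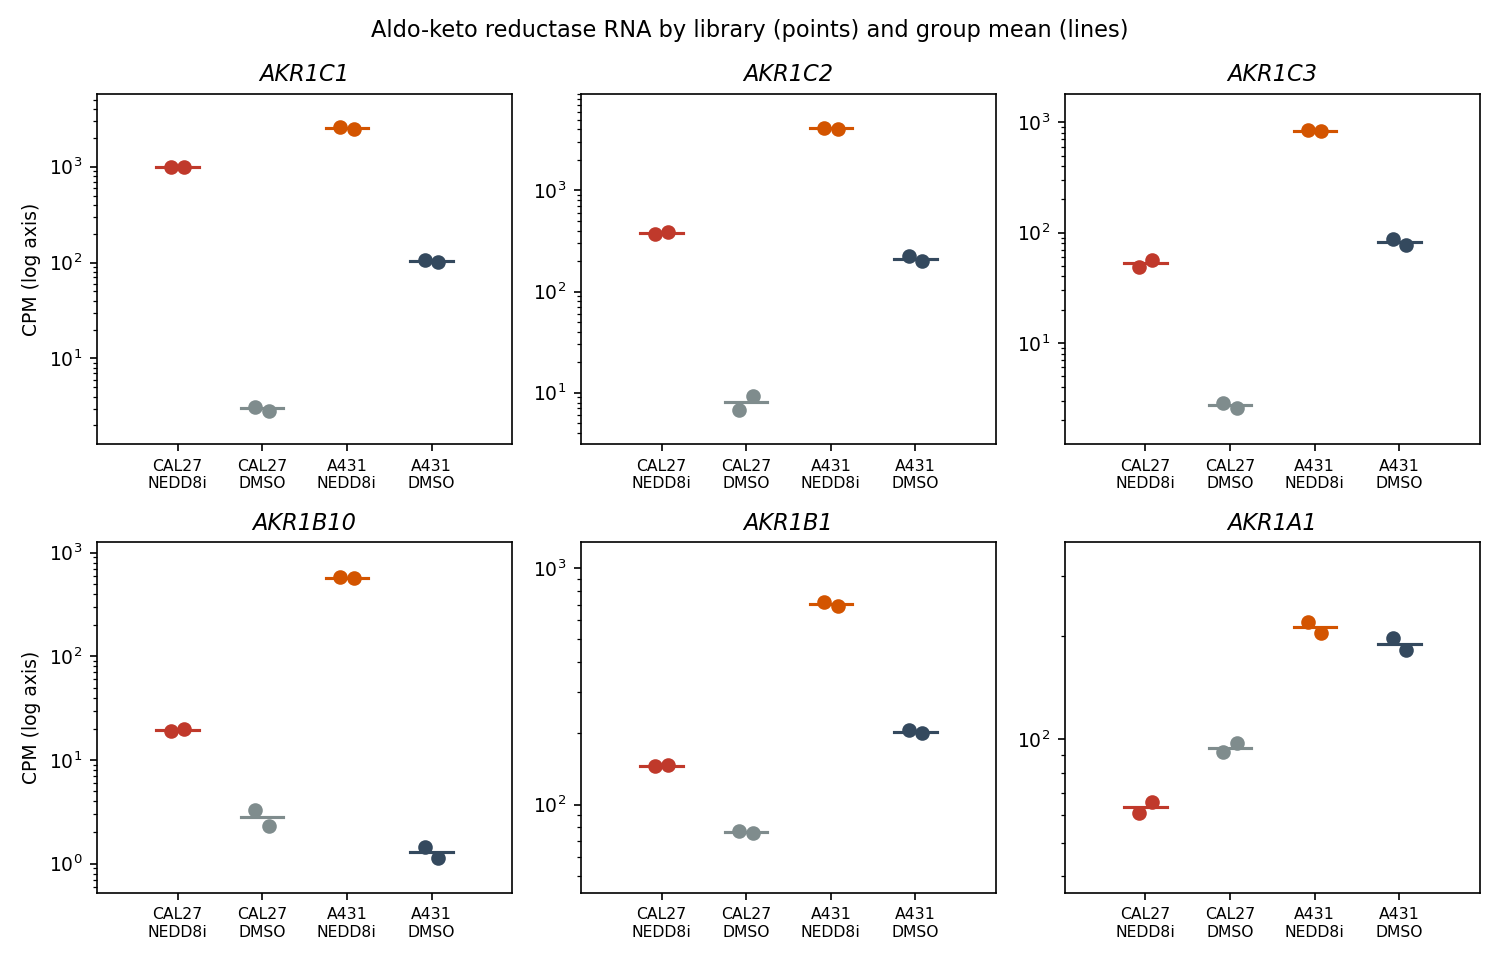
CPM on a log axis for each reductase in 8 libraries, with points for libraries and lines for the group mean (n = 2). AKR1C1, at 996 and 998 CPM in CAL27 under NEDD8i, stands far above its CAL27 controls at 3.15 and 2.86 CPM, while AKR1A1 stands lower under NEDD8i in CAL27 and slightly higher in A431.

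The mix of AKR1C counts differed between the groups as well. AKR1C1 made up 70.4% and 69.4% of the summed AKR1C1, AKR1C2 and AKR1C3 counts in CAL27 under NEDD8i, against 24.6% and 19.5% in CAL27 under DMSO. In A431 it made up 34.2% and 33.5% under NEDD8i, against 25.5% and 26.9% under DMSO. Its share was thus higher under NEDD8i in each line, and by far the highest in treated CAL27 cells. AKR1C3 made up 3.42% and 3.96% in CAL27 under NEDD8i, against 22.3% and 17.6% under DMSO, and in A431 11.3% and 11.3% under NEDD8i, against 21.0% and 20.3% under DMSO. The ratio of AKR1C1 to AKR1C2 counts was 2.69 and 2.60 in CAL27 under NEDD8i, against 0.462 and 0.311 under DMSO, and in A431 0.628 and 0.607 under NEDD8i, against 0.477 and 0.510 under DMSO. These are shares of deposited counts, in which reads shared by the copies are missing, and they do not give shares of RNA molecules.

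**Figure D2:**
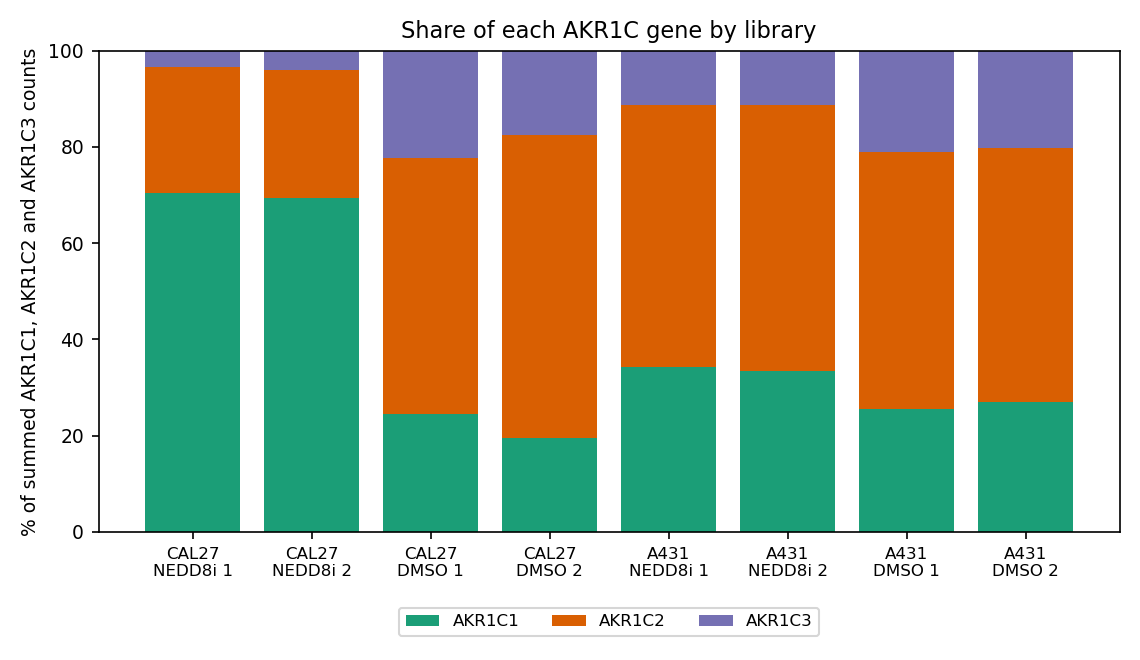
Share of AKR1C1, AKR1C2 and AKR1C3 in their summed counts for each of the 8 libraries, as stacked bars in percent. The AKR1C1 share is 70.4% and 69.4% in CAL27 under NEDD8i and at most 34.2% in every other library.

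Summed, the 3 genes took 0.141% and 0.145% of all counts in CAL27 under NEDD8i, against 0.00136% and 0.00155% under DMSO. In A431 they took 0.702% and 0.694% under NEDD8i, against 0.0417% and 0.0380% under DMSO. Fitted as 1 feature, from which the dropped reads are still missing, the log2 change of the sum was 6.70 in CAL27, against 4.24 in A431, a difference of 2.45.

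For the AKR1B genes the larger change was in A431. AKR1B10, which reduces retinal and lipid aldehydes, stood at 18.9 and 19.7 CPM in CAL27 under NEDD8i, against 3.26 and 2.33 CPM under DMSO. In A431, AKR1B10 stood at 580 and 571 CPM under NEDD8i, against 1.46 and 1.14 CPM under DMSO, which are 84 and 59 counts. The untreated A431 libraries were the lowest of all 8 and the treated A431 libraries the highest, with no overlap. The log2 change was 2.81 ± 0.10 in CAL27, 6.99-fold, and 8.78 ± 0.11 in A431, 438-fold, a difference of CAL27 minus A431 of -5.97. By log2 change AKR1B10 ranked 8 of 18738 tested genes in A431 and 471 in CAL27, while AKR1C1 ranked 17 in CAL27 and 213 in A431.

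AKR1B1, aldose reductase, converts glucose to sorbitol as the first step of the polyol pathway. In CAL27, AKR1B1 stood at 145 and 147 CPM under NEDD8i, against 77.4 and 75.8 CPM under DMSO. In A431, it stood at 719 and 689 CPM under NEDD8i, against 206 and 199.96 CPM under DMSO. The treated CAL27 libraries stayed below the untreated A431 libraries. The log2 change was 0.93 ± 0.04 in CAL27, 1.90-fold, and 1.79 ± 0.04 in A431, 3.47-fold, a difference of CAL27 minus A431 of -0.87.

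AKR1A1, aldehyde reductase, took opposite directions in the lines. In CAL27, AKR1A1 stood at 60.9 and 65.8 CPM under NEDD8i, against 91.9 and 97.3 CPM under DMSO. In A431, it stood at 221 and 204 CPM under NEDD8i, against 197 and 182 CPM under DMSO. The groups did not overlap in either line, but in A431 the gap between them was smaller than the spread within either group. The log2 change was -0.58 ± 0.06 in CAL27 and 0.16 ± 0.06 in A431, and the A431 value ranged from 0.06 to 0.23 across the alternative settings.

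**Figure D3:**
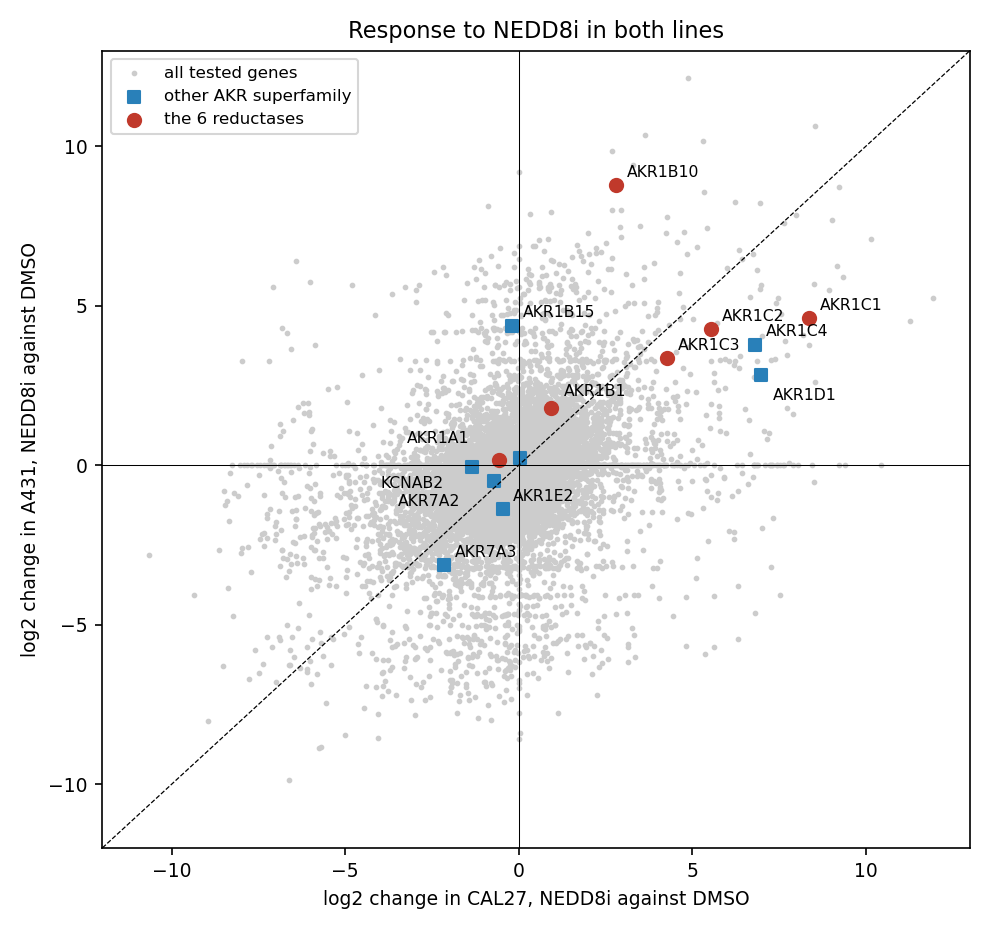
Log2 change under NEDD8i against DMSO in CAL27 (horizontal axis) and in A431 (vertical axis) for 18738 tested genes, with the 6 reductases as circles and other aldo-keto reductase genes as squares. AKR1C1 lies far to the right of the dashed line of equal change, at 8.38 and 4.60, and AKR1B10 far above it, at 2.81 and 8.78.

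The untreated lines differed in these genes before any inhibitor was given, a comparison that shares its DMSO libraries with the responses above. Because the 6 genes were selected on those responses, their adjusted p-values below are not an independent test. In DMSO, 5 of the 6 genes were lower and 1 was higher in CAL27 than in A431, where 29% of all tested genes were called lower and 29.9% higher at an adjusted p under 0.05. By edgeR's quasi-likelihood test with Benjamini-Hochberg adjustment over all tested genes, AKR1C1 was 34.7-fold lower in CAL27 than in A431 (log2 -5.12 ± 0.06, adjusted p = 1.29e-19). AKR1C3 was 30.3-fold lower (edgeR adjusted p = 8.26e-17) and AKR1C2 26.1-fold lower (edgeR adjusted p = 2.28e-17). AKR1B1 was 2.65-fold lower (edgeR adjusted p = 3.66e-14) and AKR1A1 2.0-fold lower (edgeR adjusted p = 1.63e-10). Across the alternative settings the largest edgeR adjusted p among these 5 genes was 1.23e-08. AKR1B10 alone was higher in CAL27, 2.10-fold (log2 1.07 ± 0.16, edgeR adjusted p = 1.94e-05, up to 0.0112 across the alternatives), at a level of at most 3.26 CPM in any DMSO library. In these cell populations, fewer cells expressing a gene and less RNA per cell cannot be told apart.

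Under NEDD8i the lines stood in another order for AKR1B10. CAL27 minus A431 was -4.90 on the log2 scale for AKR1B10, -4.0 for AKR1C3, -3.44 for AKR1C2, -2.27 for AKR1B1, -1.74 for AKR1A1 and -1.34 for AKR1C1. All 6 genes were thus lower in treated CAL27 cells than in treated A431 cells. This contrast was not tested, and the share of all genes lower in it was not computed. The AKR1C1 gap between the lines was narrower under NEDD8i than in DMSO, and the AKR1B10 gap was wider and of opposite sign.

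The profiles over the 8 libraries, each centred on its mean of log2 CPM with 0.1 added, were closest for AKR1C2 and AKR1C3, at a Euclidean distance of 1.74. AKR1A1 and AKR1B1 were 2.32 apart and AKR1C1 and AKR1C2 3.08. AKR1B10 was 6.07 or more from each other member. Of genes outside the family, PNLIPRP3 was nearest to AKR1B10, at 3.60, with means of 3.02 CPM in CAL27 under NEDD8i and 0.241 CPM in CAL27 under DMSO, and of 15.8 CPM in A431 under NEDD8i and 0.277 CPM in A431 under DMSO. LINC00536, GPAT3, DRD5 and MAP2 followed at 3.83 to 4.56. CYP4F3, which hydroxylates leukotriene B4, was nearest to the summed AKR1C counts, at 1.65, followed by IL1RL1, HAS2, ENSG00000231683 and SERPINB2 at 2.13 to 3.04. CYP4F3 averaged 21.3 CPM in CAL27 under NEDD8i and 0.165 CPM under DMSO, and in A431 162 CPM under NEDD8i and 3.28 CPM under DMSO.

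Other genes of the superfamily were mixed in direction. Of 11 listed, 8 were tested, and AKR1C8, AKR7L and KCNAB3 had too few counts. By edgeR, 2 rose and 3 fell in CAL27, where 23.2% of all tested genes rose and 26.4% fell, and 2 rose and 3 fell in A431, where 22.5% rose and 21.1% fell. Their median log2 change was -0.32 in CAL27 and 0.08 in A431, beside -0.04 and -0.01 over all tested genes. AKR7A2, an aflatoxin aldehyde reductase, stood at 38.5 and 41.2 CPM in CAL27 under NEDD8i, against 66.9 and 64.9 CPM under DMSO, and at 94.8 and 92.3 CPM in A431 under NEDD8i, against 132 and 132 CPM under DMSO. It fell by 0.73 on the log2 scale in CAL27 (edgeR adjusted p = 1.7e-08) and by 0.49 in A431 (edgeR adjusted p = 1.81e-06). KCNAB2, a potassium channel beta subunit of this fold, fell by 1.35 in CAL27 (edgeR adjusted p = 1.58e-08) with a log2 change of -0.06 in A431 (edgeR adjusted p = 0.698).

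The remaining superfamily calls rest on few counts. AKR1B15, next to AKR1B10, stood at 0.390 and 0.568 CPM in CAL27 under NEDD8i, against 0.371 and 0.712 CPM under DMSO, and at 2.36 and 2.40 CPM in A431 under NEDD8i, against 0 and 0.233 CPM under DMSO. It rose in A431 (log2 4.37 ± 0.83, edgeR adjusted p = 0.000322), and the value was 3.35 without A431 DMSO replicate 1 and 10.06 without A431 DMSO replicate 2. AKR1B15 also shares 3′ end sequence with AKR1B10. In CAL27, AKR1C4 had 29 counts and AKR1D1, the steroid reductase of bile acid synthesis, 32 counts over both treated libraries and none in DMSO, at least 10.2-fold and 11.3-fold higher with 3 counts over the group as the floor. Some 50-base windows in the last 500 bases of AKR1C3 also occur in AKR1C4. Whether AKR1C4 counts come from other AKR1C transcripts was not tested. The AKR1D1 call was lost without either CAL27 DMSO library (edgeR adjusted p = 0.106 and 0.116) and without CAL27 NEDD8i replicate 2 (edgeR adjusted p = 0.055). AKR1C4 rose in A431 (log2 3.79, edgeR adjusted p = 0.0125), a call that did not hold without A431 DMSO replicate 1 (edgeR adjusted p = 0.0696) or A431 NEDD8i replicate 1 (edgeR adjusted p = 0.136). AKR7A3 fell in CAL27 (log2 -2.15, edgeR adjusted p = 0.0195), a call lost without CAL27 DMSO replicate 1 or either treated CAL27 library (edgeR adjusted p = 0.174, 0.0741 and 0.0612), and in A431 (log2 -3.13, edgeR adjusted p = 0.00229), where the value was -4.14 without A431 NEDD8i replicate 2. AKR1E2 fell in A431 (log2 -1.37, edgeR adjusted p = 0.0041), a call that did not hold without A431 DMSO replicate 2 (edgeR adjusted p = 0.0845).

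Genes lying within 250 kb of the members, a window chosen after the data were seen, were mixed. Around AKR1B1 and AKR1B10, 5 tested genes are no aldo-keto reductases. SLC35B4 fell in CAL27 (log2 -0.61) and rose in A431 (log2 0.63), BPGM rose in CAL27 (log2 0.64) and fell in A431 (log2 -0.33), and CALD1 fell in A431 (log2 -0.78), all at an edgeR adjusted p of 0.0131 or less. Around the AKR1C genes, 3 such genes were tested and only ENSG00000224251 was called, higher in both lines (edgeR adjusted p = 0.0396 in CAL27 and 0.000274 in A431). It lies inside AKR1C2 on the opposite strand with no exonic base in common, and because counting ignored strand its reads cannot be told apart from intronic AKR1C2 reads. The AKR1C7P pseudogene also rose in both lines (log2 2.89 in CAL27 and 2.07 in A431, edgeR adjusted p = 0.000774 and 0.00689).

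**Figure D4:**
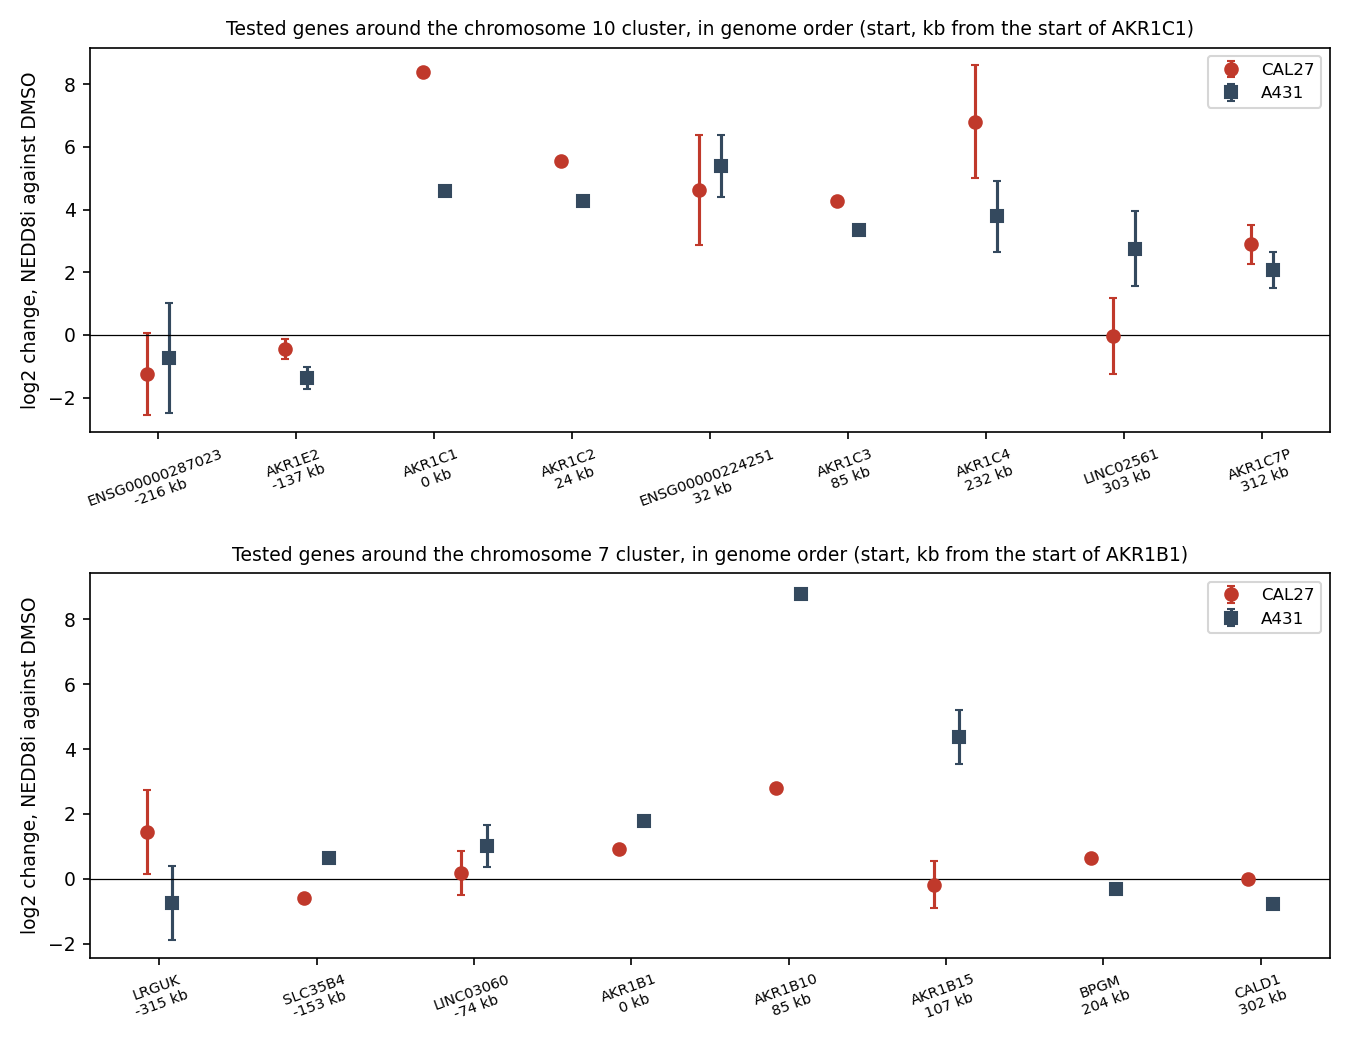
Log2 change under NEDD8i against DMSO, with approximate standard errors, for the tested genes within 250 kb of the AKR1C genes (top) and of AKR1B1 and AKR1B10 (bottom), in genome order with the distance of each start in kb. AKR1C1 at 8.38 in CAL27 and AKR1B10 at 8.78 in A431 stand above the other genes of their windows.

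Other carbonyl reductases were mixed. Of 13 tested, 5 rose and 4 fell in CAL27 (median log2 0.08), where 23.2% of all tested genes rose and 26.4% fell, and 6 rose and 3 fell in A431 (median log2 0.35), where 22.5% rose and 21.1% fell. DHRS2, a short-chain dehydrogenase, stood at 2.19 and 2.20 CPM in CAL27 under NEDD8i, against 0.778 and 1.09 CPM under DMSO, and at 0.219 and 0.0364 CPM in A431 under NEDD8i, against 2.12 and 3.18 CPM under DMSO. It fell in A431 (log2 -4.42, edgeR adjusted p = 5.6e-06), and the log2 value was -6.09 without A431 NEDD8i replicate 1 and -3.57 without A431 NEDD8i replicate 2. Its rise in CAL27 (log2 1.23, edgeR adjusted p = 0.0296) missed the threshold without any 1 of the 4 CAL27 libraries (edgeR adjusted p = 0.0519 to 0.17). PTGR1, which inactivates leukotriene B4 and prostaglandins, rose in both lines, by a log2 of 2.63 ± 0.05 in CAL27 (edgeR adjusted p = 1.31e-16) and 2.78 ± 0.05 in A431 (edgeR adjusted p = 1.08e-16). NQO1, a quinone reductase and NRF2 target, rose by a log2 of 1.91 in CAL27 (edgeR adjusted p = 6.25e-16) and 1.63 in A431 (edgeR adjusted p = 5.31e-15). CBR3, which reduces anthracyclines, stood at 2.16 and 2.79 CPM in CAL27 under NEDD8i, against 1.78 and 2.29 CPM under DMSO, and at 14.5 and 14.5 CPM in A431 under NEDD8i, against 2.90 and 2.87 CPM under DMSO. It rose in A431 (log2 2.33, edgeR adjusted p = 4.5e-08) and its CAL27 change did not pass (edgeR adjusted p = 0.306). Most of its exonic bases overlap an antisense gene. CBR4, a mitochondrial reductase, fell by 1.17 in CAL27 (edgeR adjusted p = 4.14e-05) and by 0.85 in A431 (edgeR adjusted p = 0.000747) on the log2 scale.

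The NRF2 list, with regulators and targets outside the aldo-keto reductases, was chosen with results known. It shares NQO1, CBR1 and CBR3 with the list of carbonyl reductases, so the counts of the lists are not separate. Of 34 tested genes, 28 rose and 2 fell in CAL27 (median log2 1.25) and 31 rose and 2 fell in A431 (median log2 1.87), beside the 23.2% and 22.5% of all tested genes that rose. SLC7A11, the cystine transporter, stood at 469 and 456 CPM in CAL27 under NEDD8i, against 23.0 and 22.7 CPM under DMSO, and at 1206 and 1194 CPM in A431 under NEDD8i, against 102 and 119.9 CPM under DMSO. The transcript of NRF2 itself, NFE2L2, did not pass the test, with a log2 change of 0.09 in CAL27 (edgeR adjusted p = 0.139) and -0.11 in A431 (edgeR adjusted p = 0.0798). In DMSO 8 of the 34 genes were higher and 19 lower in CAL27 than in A431, with a median log2 of -0.48, where 29.9% of all tested genes were higher and 29% lower.

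Genes of the polyol pathway and osmotic response, steroid hormone enzymes and retinoid genes came next. Of 7 tested genes of the polyol pathway and osmotic response, 1 rose and 4 fell in CAL27 and 4 rose and 2 fell in A431, beside 23.2% and 26.4% of all tested genes in CAL27 and 22.5% and 21.1% in A431. The gene that rose in CAL27 was the taurine transporter SLC6A6 (log2 0.23, edgeR adjusted p = 0.0143). It missed the threshold with library sizes left unscaled (log2 0.15, edgeR adjusted p = 0.102). It also missed the threshold without CAL27 DMSO replicate 1 (log2 0.23) or CAL27 NEDD8i replicate 1 (log2 0.21). SORD, which turns the sorbitol made by AKR1B1 into fructose, fell by 1.14 on the log2 scale in CAL27 (edgeR adjusted p = 7.42e-12) and by 0.67 in A431 (edgeR adjusted p = 1.37e-08), while AKR1B1 was higher in both. In the test of the difference between responses, all 7 were lower in CAL27, where 19.8% of all tested genes were lower and 14.2% higher. The osmotic factor NFAT5 rose in A431 (log2 0.85, edgeR adjusted p = 6.98e-07), against 0.04 in CAL27 (edgeR adjusted p = 0.765).

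Of 16 tested steroid hormone enzymes, 3 rose and 9 fell in CAL27 (median log2 -0.56) and 4 rose and 6 fell in A431 (median log2 -0.23), beside the same shares of all tested genes, 23.2% higher and 26.4% lower in CAL27 and 22.5% and 21.1% in A431. The count that fell in A431 was 3 without A431 DMSO replicate 1 or A431 NEDD8i replicate 1. STS, which releases steroids from their sulfates, fell by 2.26 in CAL27 (edgeR adjusted p = 5.81e-13) and by 1.66 in A431 (edgeR adjusted p = 4.39e-11) on the log2 scale. SULT2B1, which sulfates cholesterol, rose by a log2 of 2.82 in CAL27 (edgeR adjusted p = 9.43e-09) and 3.99 in A431 (edgeR adjusted p = 3.45e-11). CYP19A1, aromatase, had no count in A431 under DMSO and 54 over both treated A431 libraries, at least 19.5-fold higher. Of 19 tested retinoid genes, 9 rose and 6 fell in CAL27 (median log2 0.13, or 0.24 with a gene at 0 set to its bound) and 7 rose and 6 fell in A431 (median log2 -0.01), beside 23.2% of all tested genes higher and 26.4% lower in CAL27 and 22.5% and 21.1% in A431. STRA6, a retinol transporter, fell by 2.19 in CAL27 (edgeR adjusted p = 2.65e-09) and by 1.61 in A431 (edgeR adjusted p = 2.55e-10) on the log2 scale. CYP26A1, which breaks down retinoic acid, fell by 3.67 in A431 (edgeR adjusted p = 3.62e-07), and CYP26B1 rose by a log2 of 1.23 in CAL27 (edgeR adjusted p = 2.41e-05) and 1.99 in A431 (edgeR adjusted p = 6.52e-09).

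With library sizes left unscaled, the median of all genes in A431 moved by -0.10 on the log2 scale, and the A431 calls split into 3466 higher and 4869 lower, against 4224 and 3951 in the scaled fit.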

How the data were processed

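Per the labels' protocols, 8 libraries were prepared with the QuantSeq FWD kit, which reads transcript 3′ ends. The authors deposited whole-number counts per gene. Reads were aligned to GRCh38 with STAR, per the submitters' processing notes, and counted with featureCounts 2.0.8 over basic GENCODE 39 exons, per the file headers, without regard to strand, with each mate counted, and with multi-mapping reads and reads over more than 1 gene dropped. DESeq2 is also named in those notes.

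From the deposited counts, edgeR 4.0.16 in R 4.3.3 was used with TMM scaling, filterByExpr, 1 mean for each of 4 groups and quasi-likelihood tests, with Benjamini-Hochberg adjustment over 18738 genes and a threshold of 0.05. Residual degrees of freedom were 4. The fit was run on simulated data with the same spread for every gene, which does not cover the wider spread of genes with few counts. Alternatives changed the scaling, filter, test (DESeq2 1.42.0), libraries, block and counting. Sequences were compared with Biopython 1.88 in Python 3.11.15 from GENCODE 29 transcripts and RefSeq windows.

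The members and all gene lists were chosen with earlier results of these data known. Named are the 6 members and the 5 genes nearest in profile to AKR1B10 and to the summed AKR1C counts. Genes of each list were drawn in part from up to 4 called genes with the largest change in a comparison. Not all of those were named, so the named genes are not always the extremes of a list. In CAL27, AQP3 (log2 -1.79) and KHK (log2 -1.29) fell further than SORD. In A431, OSGIN1 (log2 3.75) and SRXN1 (log2 3.66) rose further than SLC7A11 (log2 3.43). Other genes, such as neighbours, NFE2L2, pseudogenes, and NQO1 and SLC7A11 in the difference between responses, were chosen after their values were seen.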

Additional observations from a re-analysis of the deposited data

Results flagged for a closer look

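The responses of the lines to NEDD8i differed for the genes below, given as the CAL27 log2 change minus the A431 log2 change, with adjusted p from edgeR's quasi-likelihood interaction test. AKR1A1 differed by -0.74, with both CAL27 libraries lower and both A431 libraries higher under NEDD8i, and this difference was not tested.

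Among other aldo-keto reductases, AKR1B15 differed by -4.56 (edgeR adjusted p = 0.00338), KCNAB2 by -1.30 (edgeR adjusted p = 3.01e-06) and AKR7A2 by -0.23 (edgeR adjusted p = 0.041). The AKR1B15 difference was -3.52 without A431 DMSO replicate 1 and -10.23 without A431 DMSO replicate 2. The AKR7A2 difference missed the threshold under 12 of the alternatives. Of 13 tested carbonyl reductases, 2 were called higher and 5 lower in this difference, beside 14.2% and 19.8% of all tested genes. The 2 higher were DHRS2, at 5.65 (edgeR adjusted p = 9.62e-06), and NQO1, at 0.28 (edgeR adjusted p = 0.000965). Among the 5 lower were CBR3 at -2.05 (edgeR adjusted p = 2.79e-05), NQO2 at -0.97 (edgeR adjusted p = 1.13e-06) and CBR1 at -0.64 (edgeR adjusted p = 3.46e-05). The DHRS2 difference was 7.34 without A431 NEDD8i replicate 1 and 4.80 without A431 NEDD8i replicate 2.

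Of the polyol and osmotic genes, SLC6A6 differed by -1.56 (edgeR adjusted p = 5.11e-09), AQP3 by -1.53 (edgeR adjusted p = 8.35e-11), KHK by -1.01 (edgeR adjusted p = 0.0299, missed under 6 alternatives) and NFAT5 by -0.82 (edgeR adjusted p = 8.08e-05). Of the steroid enzymes, CYP19A1 differed by -7.56 (edgeR adjusted p = 0.0128), against a group at 0 counts, SULT2B1 by -1.17 (edgeR adjusted p = 0.0064) and HSD17B2 by 3.04 (edgeR adjusted p = 0.00157). The HSD17B2 difference was 2.21 without CAL27 DMSO replicate 1 and 7.74 without CAL27 DMSO replicate 2. The CYP19A1 difference was -6.85 without CAL27 NEDD8i replicate 1, -9.06 without CAL27 NEDD8i replicate 2 and -6.94 without CAL27 DMSO replicate 2. Of the retinoid genes, ALDH1A1 differed by 2.22 (edgeR adjusted p = 4e-05), RARRES1 by 0.92 (edgeR adjusted p = 0.0163) and STRA6 by -0.58 (edgeR adjusted p = 0.0254, missed under 7 alternatives). The ALDH1A1 difference rests on few CAL27 counts, 10 and 8 under DMSO and 42 and 32 under NEDD8i. In A431 the log2 change of ALDH1A1 was -0.12. The SULT2B1 call was lost without CAL27 DMSO replicate 2 (edgeR adjusted p = 0.0728) and the RARRES1 call without CAL27 NEDD8i replicate 1 (edgeR adjusted p = 0.157). Of the 34 genes of the NRF2 list, 9 were called higher and 14 lower in this difference (median log2 -0.15), beside 14.2% and 19.8% of all tested genes. SLC7A11 differed by 0.91 (edgeR adjusted p = 1.61e-07). The largest differences of that list were negative: HMOX1 at -2.09 (edgeR adjusted p = 9.86e-11), CBR3 as given above, ABCC3 at -1.98 (edgeR adjusted p = 9.18e-09) and ME1 at -1.68 (edgeR adjusted p = 3.89e-12).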

How the results depend on the processing

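Under up to 16 alternatives that count the genes apart, no member value changed sign, and counts over all genes stayed within 1.5 times. Leaving out each library gave 3723 to 4354 higher and 3141 to 4000 lower calls in A431. Of the members' values, 375 moved by less than the spread between libraries or kept their call and 15 moved by more, among them the values of the summed AKR1C counts. The AKR1B10 difference between untreated lines ranged from 0.83 to 1.32 on the log2 scale.

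Replicate numbers did not pair the libraries: deviations of same-numbered libraries correlated between -0.08 and 0.08. With the replicate block, A431 had 4142 higher and 3810 lower calls, against 4224 and 3951 without it. The fit on the libraries of a contrast alone gives no value for the difference between lines. Depth limits the genes under 1 CPM.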
